A study of Mus musculus with 7 samples.

Results

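The genes of antigen presentation by the major histocompatibility complex (MHC) were examined in endpoint tumors of a mouse glioma model. They were 10 named genes, taken as the rows of the deposited expression table that carry their symbols: H2-K1, H2-D1, B2m, Tap1 and Tap2 for class I, and H2-Aa, H2-Ab1, H2-Eb1, Cd74 and Ciita for class II. All 10 were among the 19257 genes of the table, and all 10 passed the filter on low values that left 14782 genes for testing. Bulk RNA-Seq had been made from 3 tumors of the 3xCR group, whose genotype is labelled control, and from 4 tumors of the GPC6 group, with 1 library per brain. Tumors of both groups arose after CRISPR-Cas9 constructs had been electroporated into the embryonic brain to disrupt tumor suppressors that included Trp53 and Nf1, and the GPC6 group additionally overexpressed the glypican GPC6. The animals of the study were of CD-1 and C57BL/6 backgrounds and of both sexes, and the background, sex and age of each sequenced animal were not given in the sources used here. The constructs enter electroporated cells and their progeny, so the tumor tissue also held host microglia, blood-derived immune cells, vessels and neurons that lack them.

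Class I molecules are built from a heavy chain (H2-K1 or H2-D1) and β2-microglobulin (B2m), and they show peptides from inside the cell to CD8 T cells after the transporter formed by Tap1 and Tap2 has carried those peptides into the endoplasmic reticulum. Class II molecules are built from an alpha and a beta chain (H2-Aa with H2-Ab1, and the E chain pair that contains H2-Eb1), and they show peptides from endosomes to CD4 T cells. Cd74, the invariant chain, guards the class II groove until it reaches the endosome, and Ciita is the transactivator that switches class II genes on. Nearly all cells can make class I, while class II is mostly made by professional antigen presenting cells. In the brain interferon gamma is a known inducer of both classes, and microglia and infiltrating myeloid cells are the usual class II source.

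Most of the members lie in the H2 complex on mouse chromosome 17 (GENCODE annotation, GRCm38). H2-K1 spans chr17:33996017-34000347, Tap1 spans chr17:34187553-34197225 and Tap2 spans chr17:34203527-34216321. They are followed by H2-Ab1 at chr17:34257689-34269419, H2-Aa at chr17:34282744-34287823, H2-Eb1 at chr17:34305867-34316674 and H2-D1 at chr17:35262730-35267499. Of the other 3, B2m is at chr2:122147686-122153083, Ciita is at chr16:10480059-10528418, and Cd74 is on a further chromosome. Tap1 overlaps Psmb9, B2m overlaps Patl2 and Ciita overlaps Dexi on the other strand. The libraries were made with a stranded kit, but whether the counting used strand is not stated.

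The upstream regions are shown because the classical class I and class II genes share a promoter module. In textbook form, an X2 box bound by CREB-type factors and a Y box bound by NF-Y stand at a fixed spacing, and CIITA (class II) or NLRC5 (class I) is recruited to the assembled complex. RefSeq promoters (GRCm38.p6) were matched for H2-K1, H2-D1, B2m, Tap1, H2-Aa and H2-Eb1. Cd74 was left out of the search, and no promoter entry was available for Tap2, H2-Ab1 and Ciita. The 200 bases before the RefSeq start site are printed 5′ to 3′ on the gene's strand. Capitals mark 3 motifs searched on both strands: TGANG followed after 20 to 22 bases by ATTGG (an X2 box and a Y box), AANNGAAA (the core of an interferon response element) and GGGNNTTNCC (an NF-κB element). The windows are H2-K1 at chr17:34000348-34000547, minus strand, H2-D1 at chr17:35262894-35263093, plus strand, B2m at chr2:122147487-122147686, plus strand, Tap1 at chr17:34187356-34187555, plus strand, H2-Aa at chr17:34287824-34288023, minus strand, and H2-Eb1 at chr17:34305667-34305866, plus strand. The H2-D1 window lies inside the longer gene span that GENCODE gives.
H2-K1: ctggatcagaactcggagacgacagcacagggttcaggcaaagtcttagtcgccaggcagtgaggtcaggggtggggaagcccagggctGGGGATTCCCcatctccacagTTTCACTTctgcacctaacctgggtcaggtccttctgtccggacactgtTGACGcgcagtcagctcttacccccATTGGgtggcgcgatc
H2-D1: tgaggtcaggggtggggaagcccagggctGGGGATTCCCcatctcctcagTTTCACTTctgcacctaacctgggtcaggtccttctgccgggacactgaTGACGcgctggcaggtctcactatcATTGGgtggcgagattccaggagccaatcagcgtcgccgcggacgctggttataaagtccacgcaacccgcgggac
B2m: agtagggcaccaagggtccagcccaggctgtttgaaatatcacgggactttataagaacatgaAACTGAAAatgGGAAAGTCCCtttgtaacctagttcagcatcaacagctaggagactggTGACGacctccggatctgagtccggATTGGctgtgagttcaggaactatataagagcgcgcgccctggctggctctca
Tap1: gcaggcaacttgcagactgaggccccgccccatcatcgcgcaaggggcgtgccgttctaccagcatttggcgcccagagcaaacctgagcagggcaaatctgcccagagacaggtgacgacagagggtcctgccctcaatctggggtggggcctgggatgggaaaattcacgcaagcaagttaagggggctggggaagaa
H2-Aa: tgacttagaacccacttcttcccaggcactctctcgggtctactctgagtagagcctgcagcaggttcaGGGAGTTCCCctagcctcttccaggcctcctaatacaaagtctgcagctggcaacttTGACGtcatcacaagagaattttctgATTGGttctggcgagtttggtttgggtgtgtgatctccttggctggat
H2-Eb1: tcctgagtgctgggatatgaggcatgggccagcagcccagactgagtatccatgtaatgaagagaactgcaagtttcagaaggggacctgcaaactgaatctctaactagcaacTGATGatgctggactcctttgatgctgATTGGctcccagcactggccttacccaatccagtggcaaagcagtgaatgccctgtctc

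The X2 and Y arrangement was found in 5 of the 6 windows, and it is held by 0.685% of the 32544 RefSeq windows of the same length. The gap between the boxes was 20 bases in H2-K1, H2-D1 and B2m, 21 bases in H2-Aa and 22 bases in H2-Eb1. The interferon core was found in H2-K1, H2-D1 and B2m and is held by 17% of all windows. The NF-κB element was found in H2-K1, H2-D1, B2m and H2-Aa and is held by 3.39% of all windows. Tap1 held none of the 3 in these letters, and TTCNNNGAA, the gamma-activated site, was in 0 of the 6 windows against 5.5% of all. None of the motifs overlapped another in these windows. The motifs were chosen after the sequences had been looked at, and a match describes letters and not a bound site.

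Depth ranged from 7197692 to 18879762 reads on genes per library. The shallowest libraries were GPC6 replicate 1 (7197692) and 3xCR replicate 4 (8322446), and the deepest was 3xCR replicate 2. Values are normalized counts, that is reads divided by a size factor per library, and they carry no correction for gene length. Gpc6 itself, as a check of the labels, had 217, 226 and 126 normalized counts in 3xCR replicates 2, 3 and 4. It had 675, 263, 3434 and 5084 in GPC6 replicates 1 to 4. All GPC6 libraries were above all 3xCR libraries, although GPC6 replicate 2 lay close to the controls (p = 0.0571 by an exact permutation test, two-sided, which is as small as 3 against 4 libraries allow). Across all genes, limma with Benjamini-Hochberg adjustment placed 0 of 14782 genes (0%) under an adjusted p of 0.05, while 689 genes (4.66%) had an unadjusted p under 0.05. On the same filtered genes edgeR called 0 genes and DESeq2 called 9.

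Class I and class II genes were abundant in every tumor. The 5 class I members took 0.771% to 1.15% of reads on genes in 3xCR tumors, against 0.274% to 0.728% in GPC6 tumors. The 5 class II members took 0.428% to 1.19% in 3xCR tumors, against 0.191% to 0.604% in GPC6 tumors. Levels of different genes were compared per kilobase (kb) of gene length. Per kb of the union of annotated exons B2m was the highest at a mean of 28973 normalized counts per kb over the 7 libraries, followed by Cd74 at 15711, H2-K1 at 9563, H2-D1 at 6828, H2-Ab1 at 5240.0, H2-Aa at 3859 and H2-Eb1 at 1912. The transporter genes were lower, with Tap1 at 596 and Tap2 at 478, and the transactivator Ciita was the lowest at 50.9. B2m exceeded Cd74, Cd74 exceeded H2-K1, H2-Aa exceeded H2-Eb1 and Tap2 exceeded Ciita in 7 of 7 libraries. Each of the other 5 neighbouring pairs kept its order in 6 of 7 libraries, so these neighbours were not apart in every tumor. The middle of this order depends on the length used. Per kb of the longest coding transcript, an alternative chosen after seeing the data, H2-Aa came to 12994, H2-Ab1 to 11103 and H2-D1 to 8377, which reversed the order of these 3, and Cd74 (18708) exceeded H2-K1 (17354) in 4 of 7 libraries. B2m stayed first, and H2-Eb1, Tap1, Tap2 and Ciita stayed the lowest in that order.

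The heavy chains were higher on average in the 3xCR tumors, but the difference did not pass the test. H2-K1, the K heavy chain, had 30049.6, 27937 and 52413 normalized counts in 3xCR replicates 2, 3 and 4. In GPC6 replicates 1 to 4 it had 9478, 23009, 26791 and 26995. The groups did not overlap, but the lowest 3xCR library and the highest GPC6 library were close neighbours. The means were 36799.6 ± 13563 (SD, n = 3) in 3xCR and 21568 ± 8266 (SD, n = 4) in GPC6, and the log2 fold change (GPC6 against 3xCR, on log2 of the normalized count plus 1) was −0.82 with a 95% interval of −1.94 to 0.29 (limma adjusted p = 0.730). H2-D1, the D heavy chain, had 20892, 18123 and 28719 normalized counts in the 3xCR libraries and 10195, 11887, 18743 and 14704 in the GPC6 libraries. Here GPC6 replicate 3 lay above 3xCR replicate 3, so the groups overlapped. Its log2 fold change was −0.71 with a 95% interval of −1.48 to 0.06 (limma adjusted p = 0.730). The ratio of H2-D1 to H2-K1 counts was between 0.517 and 0.700 in 6 libraries and 1.08 in GPC6 replicate 1, the library with the lowest counts of both. In the reference transcripts 6.90% of the 75-base stretches of H2-D1 and 1.55% of those of H2-K1 also occur in another gene, mostly other heavy chains, and how the authors' counting treated such reads is not stated.

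B2m, the light chain that every class I molecule shares, was like H2-K1 highest in 3xCR replicate 4 and lowest in GPC6 replicate 1. It had 25868.5, 28522 and 43449.8 normalized counts in the 3xCR libraries (replicates 2, 3 and 4), against 9048, 25382, 21846 and 20304 in GPC6 replicates 1 to 4. The groups again did not overlap, by a narrow margin between 3xCR replicate 2 and GPC6 replicate 2. The log2 fold change of B2m was −0.83 with a 95% interval of −1.85 to 0.19 (limma adjusted p = 0.730). For H2-K1 and for B2m the exact permutation test on the mean log2 value gave p = 0.0571 (two-sided, n = 3 and 4), the smallest this design allows.

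The transporter genes also had lower means in GPC6. Tap1 had 2934, 4456 and 4631 normalized counts in the 3xCR libraries and 969, 3069, 3639.7 and 3163 in the GPC6 libraries, with a log2 fold change of −0.70 and a 95% interval of −1.79 to 0.40 (limma adjusted p = 0.731). Tap2 had 1443, 2309 and 2543 in the 3xCR libraries and 774, 1383, 2238 and 1964 in the GPC6 libraries, with a log2 fold change of −0.47 and a 95% interval of −1.39 to 0.45 (limma adjusted p = 0.750). For both genes 3xCR replicate 2 lay within the range of the GPC6 libraries, and GPC6 replicate 1 was the lowest of the 7.

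**Figure D1:**
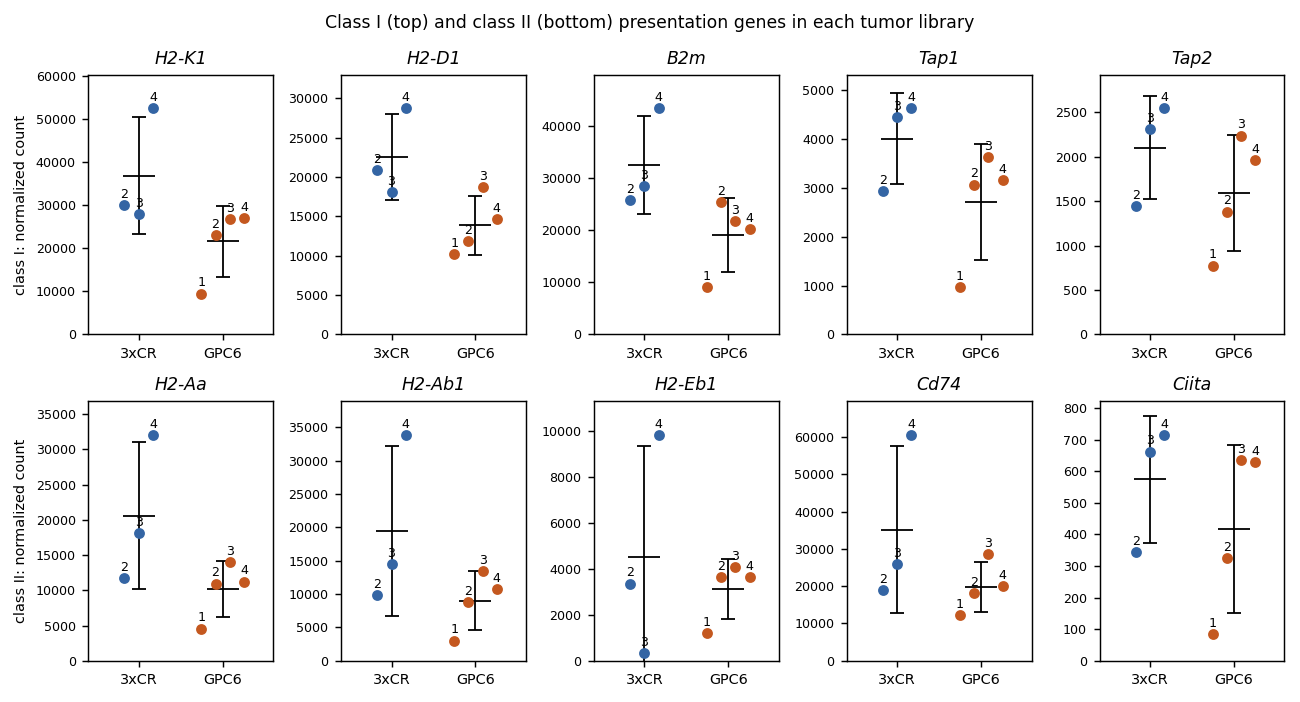
Normalized counts (linear axis from 0) of the 5 class I genes (top row) and the 5 class II genes (bottom row) in each library. Points are libraries with their replicate number, and the horizontal marks with bars are group means ± SD (3xCR, n = 3, blue; GPC6, n = 4, orange). In all 10 genes 3xCR replicate 4 is the highest point, and GPC6 replicate 1 is the lowest in 9 of 10.

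Among class II genes the A chains had the log2 fold changes farthest from 0. H2-Aa, the A alpha chain, had 11677, 18065 and 32078 normalized counts in the 3xCR libraries and 4561, 10965, 14029.9 and 11228 in the GPC6 libraries. H2-Ab1, the A beta chain, had 9879, 14457 and 33886 in the 3xCR libraries and 3020.2, 8799.9, 13462 and 10690 in the GPC6 libraries. In both genes 3xCR replicate 4 stood well above every other library, while 3xCR replicate 2 lay among the GPC6 libraries. The log2 fold change was −1.01 for H2-Aa (95% interval −2.15 to 0.14) and −1.10 for H2-Ab1 (95% interval −2.52 to 0.31), each at a limma adjusted p of 0.730. The chains kept step with each other, with a ratio of H2-Aa to H2-Ab1 counts from 0.947 to 1.51 over the 7 libraries.

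H2-Eb1, the E beta chain, did not keep step. It had 3351, 344 and 9819 normalized counts in the 3xCR libraries and 1207, 3621, 4059 and 3617 in the GPC6 libraries. The low value of 3xCR replicate 3 stood apart from that library's own A chains, since the ratio of H2-Eb1 to H2-Ab1 counts was 0.0238 there and between 0.290 and 0.411 in the other 6 libraries. The arithmetic means were 4505 ± 4842 (SD, n = 3) in 3xCR and 3126 ± 1296 (SD, n = 4) in GPC6, while the log2 fold change, a difference of mean log2 values, was 0.33 with a 95% interval of −2.07 to 2.74 (limma adjusted p = 0.933), and without 3xCR replicate 3 it turned to −1.02. H2-Ea-ps, the E alpha chain gene, which GENCODE lists as a polymorphic pseudogene at chr17:34341959-34344645, had 2647, 149 and 9167 normalized counts in the 3xCR libraries and 853, 39.5, 3488 and 3695 in the GPC6 libraries. Relative to H2-Ab1 it was at 0.0103 in 3xCR replicate 3 and 0.00449 in GPC6 replicate 2, against 0.259 to 0.346 in the other 5. So 3xCR replicate 3 was low in both E chains, and GPC6 replicate 2 was low in E alpha alone. Laboratory mouse H2 haplotypes are known to differ in whether the E chains are transcribed, and C57BL/6 mice lack E alpha transcription. The strain of each animal was not given, and its part in these values was not tested.

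**Figure D2:**
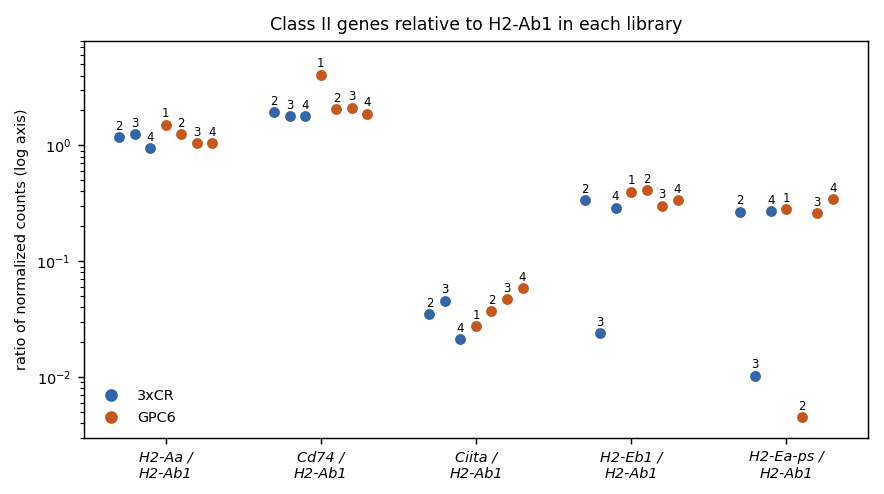
Ratio of the normalized counts of 5 class II genes to those of H2-Ab1 in each library, on a log axis (blue, 3xCR; orange, GPC6; numbers are replicates). H2-Eb1 is low in 3xCR replicate 3 (0.0238), and H2-Ea-ps is low in 3xCR replicate 3 (0.0103) and GPC6 replicate 2 (0.00449), while H2-Aa stays between 0.947 and 1.51.

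Cd74, the invariant chain (chr18:60803848-60812652), had 18997, 25875 and 60656 normalized counts in the 3xCR libraries and 12331, 18155, 28549 and 20083 in the GPC6 libraries. Its log2 fold change was −0.71 with a 95% interval of −1.85 to 0.42 (limma adjusted p = 0.731), and the groups overlapped. Per count of H2-Ab1, Cd74 stood between 1.79 and 2.12 in 6 libraries and at 4.08 in GPC6 replicate 1. Ciita, the transactivator, had 344, 662 and 715 normalized counts in the 3xCR libraries and 83.5, 325, 636 and 629 in the GPC6 libraries. GPC6 replicates 3 and 4 lay close to 3xCR replicate 3, and its log2 fold change was −0.76 with a 95% interval of −2.39 to 0.88 (limma adjusted p = 0.769). Ciita and H2-Ab1 were not in a fixed ratio, with Ciita at 0.0211 of H2-Ab1 in 3xCR replicate 4 and at 0.0588 in GPC6 replicate 4.

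Counted together, 0 of the 10 members had an adjusted p under 0.05, where the background was 0%, and 0 of 10 had an unadjusted p under 0.05 and a lower value in GPC6, where the background was 1.92%. The mean log2 value was lower in GPC6 for 5 of 5 class I genes and 4 of 5 class II genes, and for 51.7% of all genes tested. All GPC6 libraries lay below all 3xCR libraries for 2 of 5 class I genes (H2-K1 and B2m) and 0 of 5 class II genes, against 3.52% of all genes tested. The median log2 fold change was −0.71 over the class I genes and −0.76 over the class II genes, beside −0.02 over all genes tested. In bulk tissue, fewer cells that express a gene and less RNA of it per cell cannot be told apart.

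The outer libraries of both groups carried much of this size. Of the 10 members, 10 were highest in 3xCR replicate 4 and 9 were lowest in GPC6 replicate 1. Leaving these libraries out therefore had to move the fold changes upward, and only the size of the move was open. Without 3xCR replicate 4 and GPC6 replicate 1, an alternative chosen after seeing the data, the median was −0.18 for class I and −0.02 for class II, beside 0.01 for all genes. Then 5 of 5 class I and 3 of 5 class II genes were lower in GPC6, beside 48.4% of all genes. The heavy chain and B2m differences became −0.18 for H2-K1, −0.39 for H2-D1 and −0.28 for B2m, and Tap2 came to −0.00018. Of the A chains H2-Aa came to −0.28 and H2-Ab1 to −0.14, Cd74 to −0.02, Ciita to 0.09 and H2-Eb1 to 1.81. Leaving out 3xCR replicate 4 alone gave medians of −0.54 for class I and −0.56 for class II, and leaving out GPC6 replicate 1 alone gave −0.47 and −0.51.

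**Figure D3:**
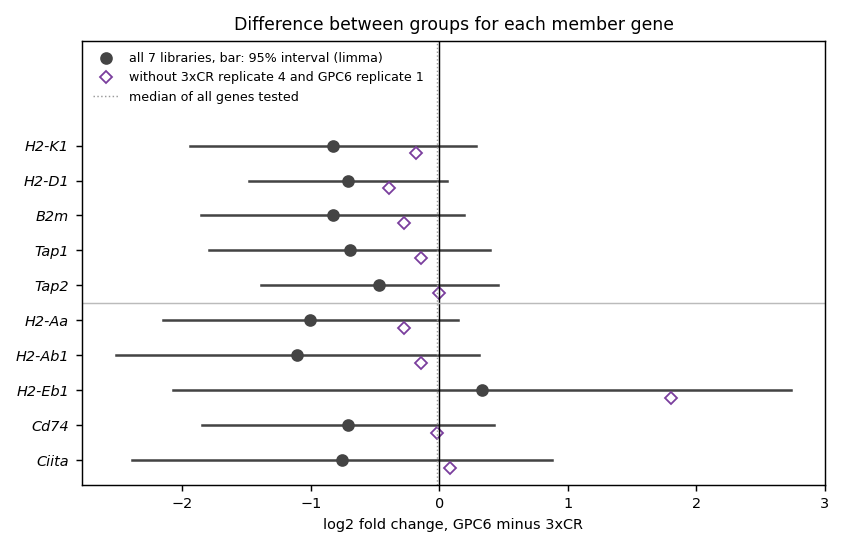
Log2 fold change (GPC6 minus 3xCR) of each member over all 7 libraries (filled circles, with 95% intervals from limma) and without 3xCR replicate 4 and GPC6 replicate 1 (open diamonds). All 10 intervals cross 0, and 9 of the 10 diamonds lie between −0.39 and 0.09, while H2-Eb1 lies at 1.81.

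The spread within a group was wider for class II than for class I in the 3xCR tumors. The highest 3xCR library exceeded the lowest by 1.58-fold (H2-D1 and Tap1) to 1.88-fold (H2-K1) in class I genes, and by 2.08-fold (Ciita) to 28.5-fold (H2-Eb1) in class II genes. Among GPC6 replicates 2 to 4 the highest exceeded the lowest by 1.17-fold (H2-K1) to 1.62-fold (Tap2) in class I and by 1.12-fold (H2-Eb1) to 1.96-fold (Ciita) in class II. With GPC6 replicate 1 included the range reached 3.76-fold for Tap1 and 7.62-fold for Ciita. The summed class II level was 0.545, 0.730 and 1.04 of the summed class I level in 3xCR replicates 2, 3 and 4. It was 0.696, 0.647, 0.829 and 0.689 in GPC6 replicates 1 to 4, inside the range of the 3xCR tumors.

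Over all 7 libraries the members were correlated, and the outer libraries weigh heavily in these values. Of the 10 members, 10 were highest in 3xCR replicate 4 and 9 were lowest in GPC6 replicate 1. Correlations without these libraries, and among all genes tested, were not computed. As a description over 7 libraries that share depth, normalization and tissue composition, Pearson's r of the log2 values was 0.75 to 0.96 (median 0.88) for the 10 pairs within class I and 0.75 to 0.99 (median 0.92) for the 6 pairs within class II without H2-Eb1. The 20 pairs between those classes had r from 0.72 to 0.98 with a median of 0.90, so the correlation between classes was of the size found within them. H2-Eb1 had r of 0.22 to 0.48 with the other 9 members. Outside the members and lists, the genes with the pattern most like the mean class I profile were Ddx58 (r = 0.997), which encodes the RNA sensor RIG-I, Lgals9 (0.994), Zc3hav1 (0.993), Olfml3 (0.991), Slamf8 (0.99) and Tmco4 (0.987). For class II they were F2r (r = 0.995), which encodes a thrombin receptor, Mrps16 (0.978), Def6 (0.977), Gm7030 (0.977), Plaur (0.973) and Lst1 (0.973).

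Other class I pathway genes showed the same picture. Of 21 listed genes 19 were tested, and H2-Q6 and H2-Q7 were not analysed here. In all 19 the mean log2 value was lower in GPC6, with a median log2 fold change of −0.75. None passed the adjusted test. H2-M2 and Tapbpl (2 of 19) were lower at an unadjusted p under 0.05, beside 1.92% of all genes tested, and all GPC6 libraries lay below all 3xCR libraries for H2-M2 and H2-M3 (2 of 19), beside 3.52%. The highest mean count, not scaled by length, was that of H2-Q4, a heavy chain of the Q region, with 10879, 11001 and 18821 normalized counts in replicates 2 to 4 of 3xCR and 3827, 10935, 10789 and 8256 in GPC6 replicates 1 to 4. Its log2 fold change was −0.75. H2-M2, a heavy chain of the M region, differed most, at −2.07, with 115, 247 and 601 normalized counts in 3xCR and 15.5, 99.8, 86.0 and 96.7 in GPC6. H2-T22 differed least, at −0.29, with 0 to 29.8 normalized counts. The further heavy chains H2-Q10, H2-T23, H2-T24 and H2-M3 had log2 fold changes of −0.54, −0.41, −0.52 and −0.70. Psmb8, Psmb9 and Psmb10, the catalytic subunits of the immunoproteasome that cuts peptides for class I, had −0.95, −1.02 and −0.80, and the loading chaperone tapasin (Tapbp) had −0.84. Nlrc5, the class I transactivator, had 1439, 1956 and 1655 normalized counts in 3xCR and 329, 1231, 1588 and 2073 in GPC6, so its highest and lowest values were both in GPC6 libraries. Its log2 fold change was −0.64.

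Other class II pathway genes were more mixed. Of 18 listed genes 17 were tested, and H2-Ea was not analysed here. The mean log2 value was lower in GPC6 for 15 and higher for 2, with a median log2 fold change of −0.78. None passed the adjusted test. Cd86, a costimulatory ligand for T cells, was the 1 of 17 lower at an unadjusted p under 0.05 (log2 fold change −1.08), beside 1.92% of all genes tested, and all GPC6 libraries lay below all 3xCR libraries for Cd86 and Rfxank (2 of 17), beside 3.52%. The highest mean count was that of Ctss, the cathepsin that trims the invariant chain, with 13849, 18918 and 28921 normalized counts in 3xCR and 7519.6, 11177, 12679.8 and 15930.3 in GPC6 (log2 fold change −0.78). Cd40 had the lowest value, −1.56, with 425 normalized counts in 3xCR replicate 4 and 12.4 in GPC6 replicate 1. Rfxap had the highest, 0.53. Rfxap, Rfx5 and Rfxank form the RFX complex that binds the class II promoter, and Rfx5 had 0.17 while Rfxank had −0.52. The peptide exchange chains H2-DMa, H2-DMb1 and H2-DMb2 had −0.80, −0.85 and −0.82, and H2-Eb2, a further E beta gene, had −0.75. H2-Ea-ps had −0.91 with a 95% interval of −5.22 to 3.40.

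Interferon gamma and its signalling genes were examined because they induce both classes. All 18 listed genes were tested, 17 had a lower and 1 a higher mean log2 value in GPC6, and the median log2 fold change was −0.73. The ligand Ifng was low in every tumor, with 12.6, 34.4 and 40.1 normalized counts in 3xCR and 6.18, 8.89, 35.5 and 46.3 in GPC6. Its highest value was in GPC6 replicate 4 and its lowest in GPC6 replicate 1. None passed the adjusted test. Iigp1, a GTPase induced by interferon, was the 1 of 18 lower at an unadjusted p under 0.05 (log2 fold change −1.46), beside 1.92% of all genes tested, and all GPC6 libraries lay below all 3xCR libraries for Iigp1 and the receptor chain Ifngr1 at −0.49 (2 of 18), beside 3.52%. Igtp, which had the highest mean count, had 12049.9, 18949 and 13260.0 normalized counts in 3xCR and 2271, 8741, 13955 and 15780.1 in GPC6. The chemokine Cxcl9 had the lowest log2 fold change, −1.75, with 613, 2231 and 9228 in 3xCR and 179, 492, 1259 and 2058 in GPC6. The kinase Jak1 had the highest, 0.14. The transcription factor Irf1 had 2464, 3632 and 4051 normalized counts in 3xCR and 478, 1799, 2754 and 3980.5 in GPC6.

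**Figure D4:**
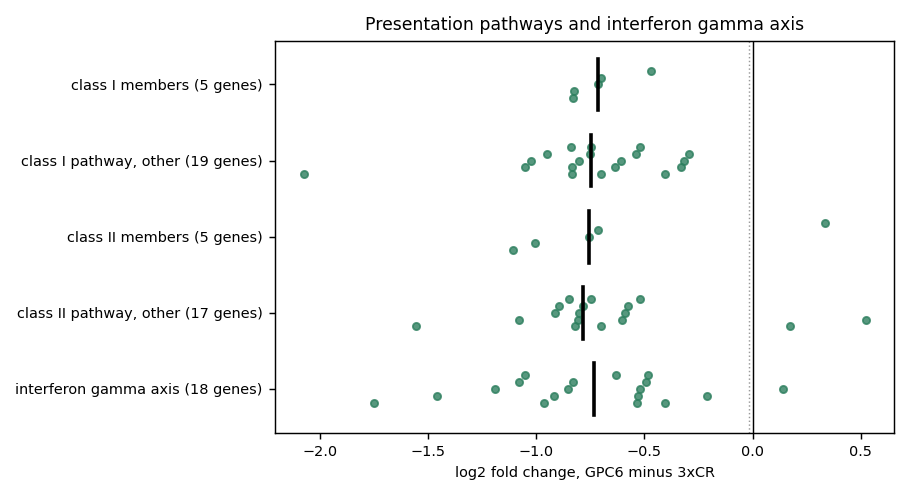
Log2 fold change (GPC6 minus 3xCR) of every tested gene in 5 lists. Each point is a gene, the black bar is the list's median, and the dotted line is the median of all genes tested. The medians lie between −0.78 and −0.71 in all 5 lists, and 4 genes lie above 0 (H2-Eb1, Rfxap, Rfx5 and Jak1).

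These lists followed the same outer libraries as the members. In 3xCR replicate 4 were the highest values of 15 of 19 class I pathway, 12 of 17 class II pathway and 12 of 18 interferon gamma genes, beside 23.9% of all genes tested. In GPC6 replicate 1 were the lowest values of 19 of 19, 12 of 17 and 13 of 18, beside 31.3% of all genes tested. Without these libraries the medians were −0.14, −0.17 and −0.13, and 13 of 19, 10 of 17 and 11 of 18 genes were lower in GPC6. For genes with both extremes in these libraries an upward move was built into the choice.

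Markers of immune cells, neurons and dividing cells differed between the same libraries. The tissue is labelled brain and neural, and the glial markers Gfap (7309.6 to 30392 normalized counts) and Olig2 (1297 to 6658) were present in every library. The 10 microglia markers, all in the table, summed to 12642, 15769 and 16534 normalized counts in replicates 2 to 4 of 3xCR and to 8238, 10962, 11467 and 10562 in GPC6 replicates 1 to 4. All 3xCR sums were above all GPC6 sums. Divided by these sums, class I was 6.42, 5.16 and 7.97 in 3xCR and 3.70, 5.91, 6.39 and 6.36 in GPC6. Class II was 3.50, 3.77 and 8.30 in 3xCR and 2.57, 3.82, 5.30 and 4.38 in GPC6. On this scale the groups overlapped for both classes. The undivided class II sums already overlapped (44248 in 3xCR replicate 2 against 60736 in GPC6 replicate 3). Undivided class I sums did not (81187 in 3xCR replicate 2 against 73258 in GPC6 replicate 3).

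The library with the highest MHC values, 3xCR replicate 4, had the highest summed B cell, T cell and monocyte markers. The 6 B cell markers summed to 3192 normalized counts there and to 94.3 to 195 in the other 6 libraries, with Cd79a at 1858 against 27.9 to 107. The T cell markers (9 of 10 listed, Trac was not analysed here) summed to 1981 against 352 to 552, with Lck at 530.4 against 58.7 to 169. The 10 macrophage and monocyte markers summed to 7047 against 546 to 1820.0, with Ly6c2 at 2394 against 122 to 491. Only 5 of these 10 were highest in that library, and of the others Ccr2 was highest in GPC6 replicate 4 (259 against 191 in 3xCR replicate 4), Mrc1 and F13a1 in GPC6 replicate 2, Cd163 in 3xCR replicate 2 and Lyve1 in GPC6 replicate 3. The 8 dendritic cell markers summed to 1065 in 3xCR replicate 4 and to 263 in GPC6 replicate 1, with 690 to 875 in the other 5 libraries. Of these 8, 6 were highest in 3xCR replicate 4. Itgax, which had the highest mean count, was not (667 there against 706 in 3xCR replicate 2). Zbtb46 was highest in GPC6 replicate 4 (62.8 against 41.4 in 3xCR replicate 4). B cells and dendritic cells are known to carry class II constitutively. No marker was at 0 in every library. Of the 6 B cell markers 5 were highest in 3xCR replicate 4. The other was Pax5, a B cell factor, which was at 0 there and between 0 and 1.86 normalized counts in all 7.

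The lowest library, GPC6 replicate 1, carried the most neuronal RNA. The 6 neuron markers summed to 40916 normalized counts there and to 2049 to 17792 in the other 6 libraries, with Snap25 at 20138. The 5 proliferation markers summed to 971 against 4650.3 to 11387, with Top2a at 145 against 1255 to 5412. The 6 astrocyte and glioma cell markers summed to 20117 there, to 13598 in 3xCR replicate 4 and to 26314 to 45305 in the other 5. The 7 endothelial markers, with Cldn5 at the highest mean count, summed to 1948 within a range of 984 to 2905. The part of cell composition in the MHC values was not tested.

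**Figure D5:**
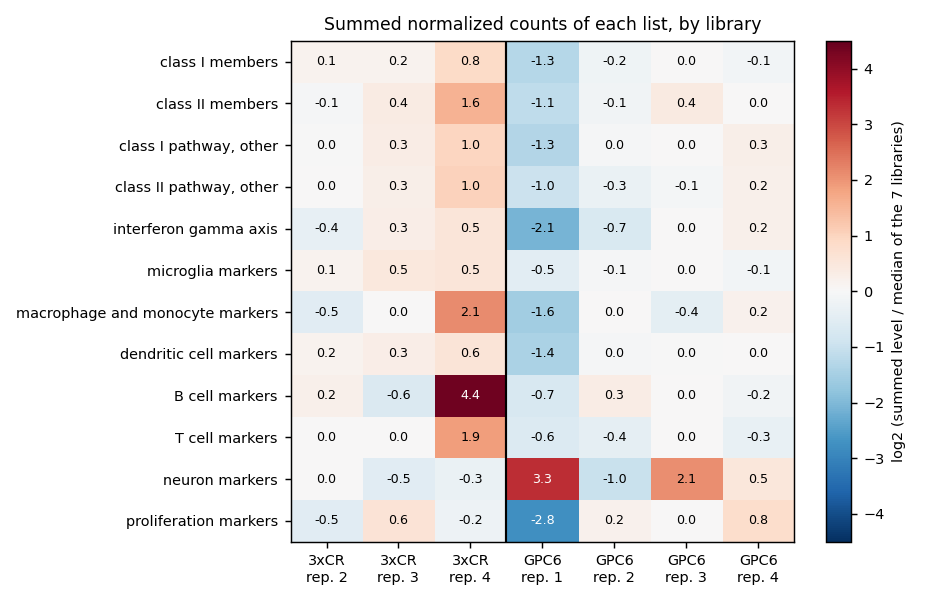
Summed normalized counts of each list in each library, as log2 of the ratio to the median of the 7 libraries (red, above the median; blue, below). The class I sum spans −1.27 to 0.85 and the class II sum −1.13 to 1.57, and the same libraries hold the extremes of the B cell (4.37) and neuron (3.31) sums.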

How the data were processed

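Bulk RNA-Seq of 7 endpoint tumors (3xCR replicates 2 to 4, GPC6 replicates 1 to 4, grouped by their titles and genotype labels) was analysed. The authors aligned reads to mm10 with STAR (2.5.0a), built a count matrix and normalized it with DESeq2 (1.20.0), so the deposited values are a normalized signal per gene, reads divided by a size factor. Tissue had been collected under fluorescence microscopy and libraries were poly(A)-selected and stranded, and the labels and the methods differ in RNA input and extraction kit. Of 19282 entries, 25 carried date-like names and held 0.254% to 0.361% of reads. They were left out. No column of another sample was present. Whole reads were recovered for 100% of values (within 0.01 of a whole number).

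The members and gene lists were chosen with earlier results of these data known. The test was limma 3.58.1 (R 4.3.3) with a variance trend, applied to log2(normalized count + 1) of 14782 genes whose mean reached at least 10, two-sided and Benjamini-Hochberg adjusted. It was checked on simulated data with changes larger than those of the members. That check does not tell how often differences of their size would be found. Single genes were also compared by exact permutation of the mean log2 value over 35 arrangements. Lists are described by counts and medians only. Named genes were all members, the most abundant and the extreme genes of each pathway list, further heavy and E chains, the most abundant marker of each list (1 is not reported here), and the 6 genes with a mean of at least 50 most like each class profile. Genes such as Psmb8, Tapbp, Nlrc5 and Irf1 were added for their known roles after values had been seen. Alternatives were other pseudocounts (0.5, 5), filters (none, 50), scalings, no trend, library weights, a replicate block, limma voom, edgeR 4.0.16, DESeq2 1.42.0 on recovered reads, and leaving out libraries. Exon lengths and coordinates came from GENCODE for GRCm38, in which 96.0% of symbols matched, and upstream sequences from RefSeq (GRCm38.p6). Replicates were separate brains.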

Additional observations from a re-analysis of the deposited data

Results flagged for a closer look

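In the 4 GPC6 libraries, 29 quantities (the members, H2-Ea-ps, Gpc6 and ratios between them) were examined for a library far from the other 3, by a gap above 0.829 of the whole range on the log2 scale. Chance gives about 1 in 20, or 1.45 of 29, if the quantities were independent and chosen beforehand. They share genes and libraries, and some were chosen after their values had been seen. The number singled out therefore cannot be set against 1.45. Of the 9 singled out, 5 were in GPC6 replicate 1. H2-K1 had 9478 normalized counts there against 23009 to 26995 in the other GPC6 tumors. Tap1 had 969 against 3069 to 3639.7, and H2-Eb1 had 1207 against 3617 to 4059. The class I sum was 3.70 times the microglia marker sum against 5.91 to 6.39, and Cd74 was 4.08 times H2-Ab1 against 1.88 to 2.12.

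The other 4 were in GPC6 replicate 2 and concern polymorphic genes of the H2 complex. H2-Ea-ps was at 0.00449 of H2-Ab1 against 0.259 to 0.346, and at 0.0109 of H2-Eb1 against 0.707 to 1.02. H2-Bl was at 0.0412 of H2-K1 against 0.0119 to 0.0130, and H2-T3 was at 0.0076 of H2-K1 against 0.000652 to 0.000927. H2-Bl and H2-T3 were chosen after their values had been seen. The cause of these values was not tested.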

How the results depend on the processing

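The class I and class II medians kept their sign under every alternative run, including library weights (−0.21 and −0.22), and the 10 members gave no adjusted p under 0.05 except H2-Eb1 with library weights (2.92, adjusted p = 0.0483 by limma). H2-Eb1 turned from 0.33 to −0.53 with edgeR and −0.52 with DESeq2. It was −1.02 without 3xCR replicate 3, and up to 1.81 with 3xCR replicate 4 and GPC6 replicate 1 left out. Ciita ranged from −1.09 to 0.0862, the latter without those outer libraries. Of the 200 alternative fold changes of members, 4 reversed, 1 passed the threshold and 195 did neither. Genes under an adjusted p of 0.05 numbered 0 in the limma fit, 1962 with library weights and 9 with DESeq2, and genes under an unadjusted p of 0.05 numbered 689, 5105 and 1793. Among fits with libraries left out, the unadjusted count was lowest at 121 when 3xCR replicate 4 was left out and highest at 1399 when GPC6 replicate 2 was, and it was 197 with both outer libraries left out, 377 without 3xCR replicate 3, 384 without GPC6 replicate 3, 1134 without 3xCR replicate 2 and 1159 without GPC6 replicate 4. The cause of these differences was not tested. With the replicate block 0 genes passed the adjusted and 678 the unadjusted threshold. GPC6 replicate 1 has no same-numbered 3xCR library, so the block gave the member fold changes of the fit without GPC6 replicate 1 (H2-K1 −0.47 in both). For the member fold changes it is therefore not a separate alternative. Deviations of same-numbered libraries correlated at −0.194, 0.118 and 0.296 for replicates 2, 3 and 4. These values had no reference to compare with, so whether the numbers pair the tumors was not tested. With 3 against 4 libraries and this spread, differences of the size seen in the members could not be told from 0.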

Other observations

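Among the H2 genes of the table, GPC6 replicate 2 had the highest value of H2-Bl, H2-K2, H2-T3, H2-Q2 and H2-M10.2. GPC6 replicate 2 was the highest library for 12.2% of all genes tested. The share among the H2 genes with reads was near this, so the number of such genes is not a result about this library. H2-M10.2 was below the filter on low values and was not tested. All other H2 genes with reads had their highest value outside GPC6 replicate 2. That library was highest for 0 of 10 members, 0 of 19 other class I pathway genes and 0 of 17 other class II pathway genes. H2-Bl had 947 normalized counts there against 124 to 499 in the other 6 libraries, and H2-K2, annotated as a pseudogene, had 894 against 128 to 747. H2-T3 had 175 against 6.18 to 73.2, H2-Q2 had 2106 against 468 to 1921, and H2-M10.2 had 21.7 against 0 to 13.8. These genes were chosen after their values had been seen. In 3xCR replicate 3, where H2-Eb1 and H2-Ea-ps were low, H2-Bl, H2-K2 and H2-T3 lay within the range of the other 3xCR and GPC6 tumors.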
